A study of Mus musculus with 74 samples.

Results

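Bone morphogenetic protein (BMP) signalling genes were followed in the gut epithelium of the mouse: the ligands Bmp2, Bmp4 and Bmp7, the secreted antagonist Nog, the inhibitory Smads Smad6 and Smad7, and Id1, Id2, Id3 and Id4. They were chosen by symbol, with earlier results of these data known, and make up 10 of the 24015 genes of the count table. All 10 passed the low-count filter of the embryonic fit. In the adult fit 8 did, and Bmp4 and Nog were not tested there. RNA-seq read counts were available for 31 libraries in 15 groups, made to follow how the epithelia of stomach and intestine diverge and what loss of the intestinal transcription factor Cdx2 does at different ages.

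Wild-type CD1 embryos gave forestomach, hindstomach and small intestine at embryonic day (E) 12, 14 and 16, and small intestine at E18, with 2 libraries per group. In mice the forestomach is lined by squamous epithelium and the hindstomach by glands. Small intestine labelled Cdx2-/- came from mice of a B6;129 mixed background carrying floxed Cdx2 alleles (Cdx2f/f). Shh-Cre mice, with the deletion dated to E10, gave 3 libraries at E16. Villin-Cre mice given 5 mg of tamoxifen gave 2 libraries at E16 with the deletion dated to E13, and 2 at E18 with it dated to E15. Shh-Cre is driven by the promoter of Sonic hedgehog and Villin-Cre by that of an intestinal epithelial gene. Adult ileum villi came from Cdx2f/f mice without Cre that were given oil and from Cdx2f/f; Villin-Cre mice given 1 mg of tamoxifen on 5 days, with 2 libraries each. Both adult groups thus carry the floxed alleles, while Cre and tamoxifen go with the adult knockout label. In the embryo, strain, floxed alleles and Cre go with the knockout label. By the labels, tamoxifen does so too in the groups dated to E13 and E15. The effects of these and that of the deletion cannot be told apart. The labels do not say which replicates came from separate litters or pools, so p-values measure only the spread between these libraries.

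BMP ligands are secreted and bind paired serine-threonine kinase receptors, which phosphorylate Smad proteins that then enter the nucleus with Smad4. Noggin, the product of Nog, binds the ligands outside the cell, and Smad6 and Smad7 block the signal inside it and are themselves induced by it. The Id genes encode helix-loop-helix proteins without a DNA-binding part that hold bHLH factors away from DNA, and Id1, Id2 and Id3 are common direct targets of BMP signalling. In the gut the ligands come largely from the mesenchyme and act on the epithelium, and BMP signals are known for patterning the embryonic stomach and for limiting crypts to the villus base in the intestine.

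The median library held 21910062 counts, the shallowest 5970227 and the deepest 62463167. Levels are CPM, counts scaled to a common library size after TMM adjustment over all 31 libraries. For one gene, levels can be compared between libraries made with the same kit. Embryonic and adult libraries were made with different kits, so levels across them are set side by side without a test. Levels of different genes are not compared, since counts were not divided by length. A difference was called when the edgeR adjusted p was below 0.05 and the log2 fold change at least 1 in either direction. At 3 counts or fewer a gene was taken to be at the floor, and a fold against a group at the floor in every library is given as a lower bound against 3 counts per library. Such floors cover counting error only.

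Several libraries stand apart from their labels. The E12 hindstomach libraries held Cdx2 at 110 and 152 CPM, as high as E12 small intestine, and Gata4 at 0.351 to 0.538 CPM against 320 to 337 in E14 hindstomach. They also held the posterior genes Hoxa10 at 98.9 to 114 CPM and Hoxd13 at 28.1 to 30.6 CPM, which reached at most 2.77 and 0.034 CPM in the other groups. The E12 forestomach libraries held Nkx6-3 at 38.8 to 45.5 CPM and Gata4 at 259 to 263.5 CPM, and in E14 hindstomach Nkx6-3 was 51.5 to 52.2 CPM, while E14 forestomach had no Nkx6-3 count. These genes were chosen after their values were seen. Every direction given below for E12 forestomach or E12 hindstomach is that of the libraries carrying the label. Cdx2 was 13.97 to 26.7 CPM where the label gives deletion at E10, against 184 to 204 in E16 small intestine. It was 197.5 to 202 CPM in those labelled deleted at E13, 343 to 358.5 in those labelled deleted at E15 (E18 wild type 186 to 193) and 698 to 728.5 in the libraries labelled adult knockout (adult wild type 340 to 346), so Cdx2 was not lower under those 3 labels. Whole-gene counts do not separate a deleted exon from the rest of the gene, and the part of incomplete deletion was not tested. The E16 forestomach libraries were the shallowest, and 6 epithelial markers (Epcam, Cdh1, Krt8, Krt18, Krt19 and Cldn7) summed to 1507 to 1518 CPM there against 2975 or more in each other library. Krt5, a keratin gene of squamous epithelium that is not among the 6, was highest in E16 forestomach. It was 1296 to 1665 CPM there and 334 to 360 in E14 forestomach.

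**Figure D1:**
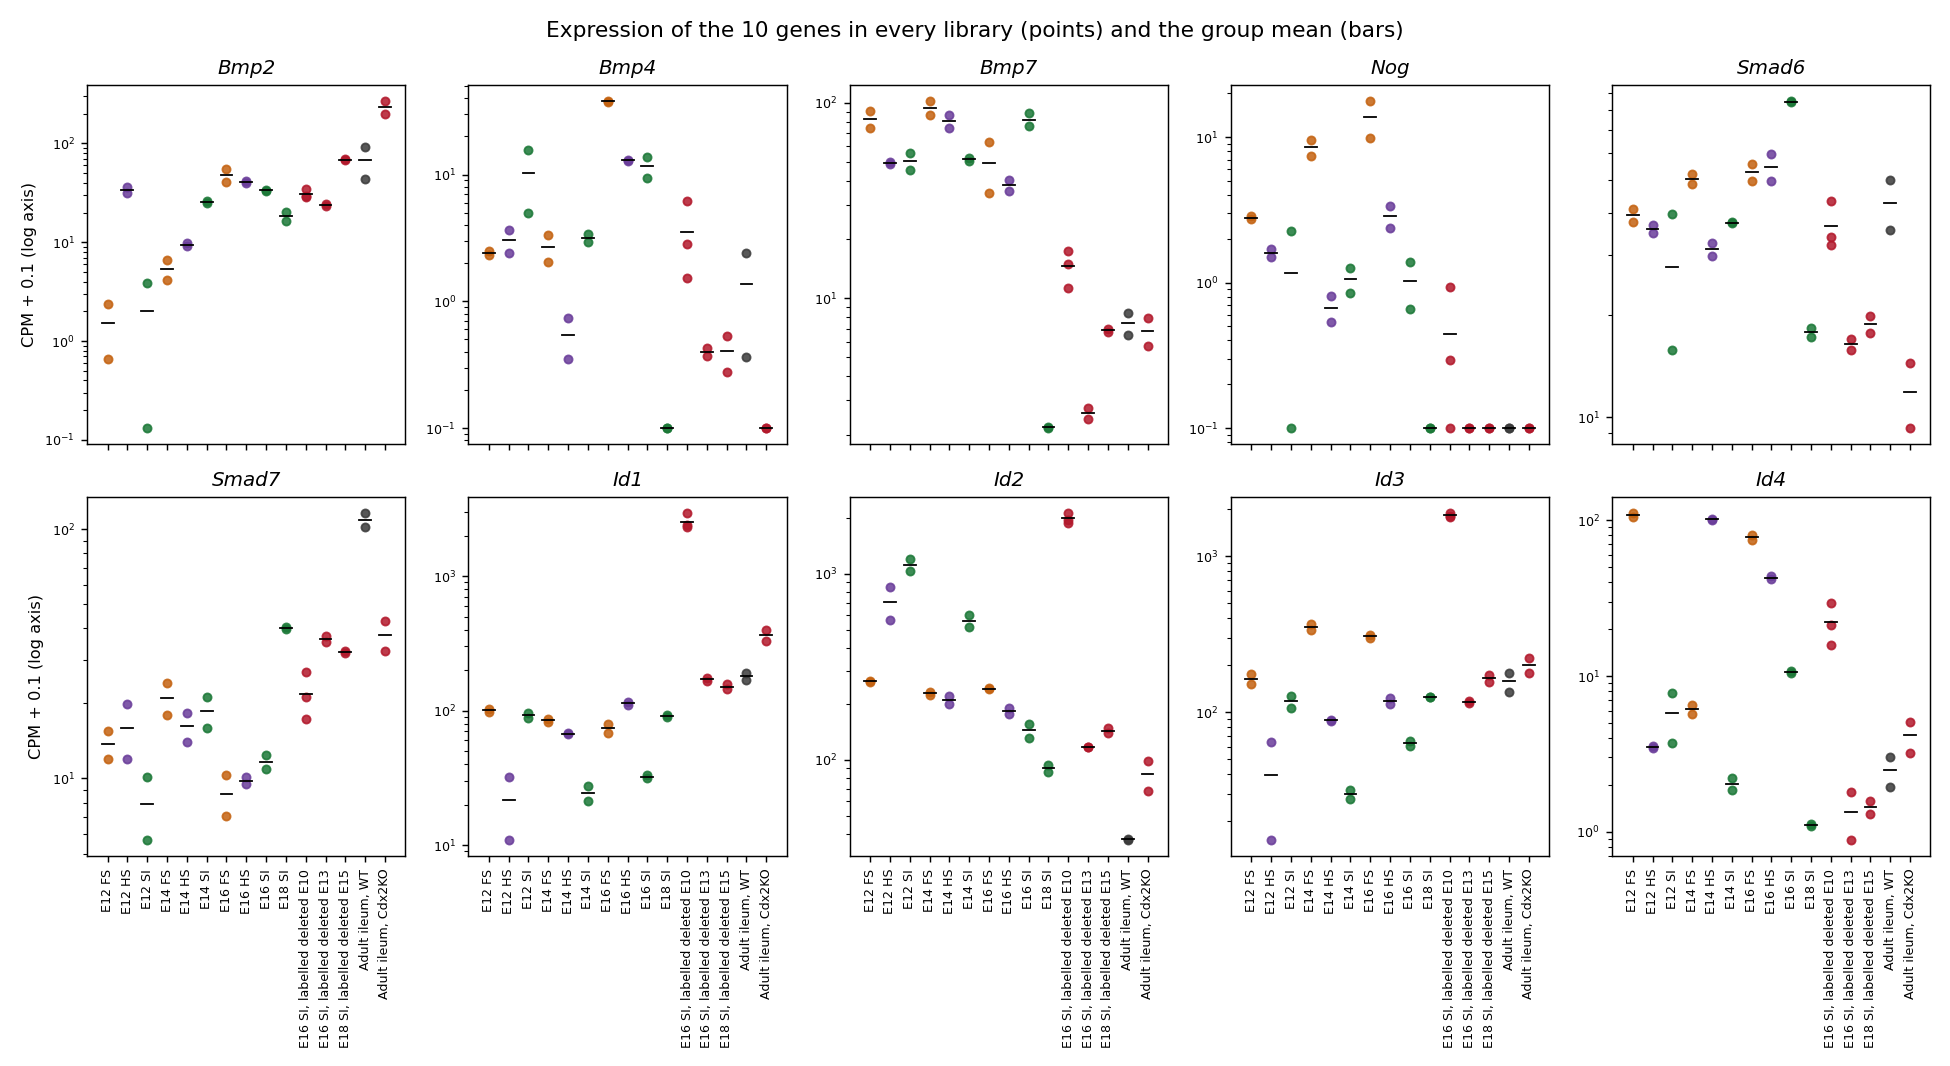
Expression of the 10 genes in each of the 31 libraries. The vertical axis is CPM plus 0.1 on a log axis, points are libraries, bars are group means, and groups run along the horizontal axis with forestomach (FS) in orange, hindstomach (HS) in purple, small intestine (SI) in green, libraries labelled Cdx2 knockout in red and adult wild type in grey. On this TMM scale Id1, Id2 and Id3 were highest in the 3 libraries with the deletion at E10 on their label (by total counts Id2 was not), and Bmp4, Nog and Bmp7 were low from E18 on.

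The first question was how the 10 genes differ between the 3 organs. At E12, 5 of the 10 were called between forestomach and hindstomach (7.11% of all tested genes), 3 between forestomach and small intestine (10.1%) and 4 between hindstomach and small intestine (9.28%). At E14 the counts were 3 (8.46% of all tested genes), 5 (11.9%) and 5 (6.83%) for the same pairs. E16 gave 1 (20.1%), 5 (35.0%) and 3 (25.7%). The E16 count between stomach regions was 3 with RLE scaling, DESeq2, thinning or only the groups compared in the fit, so it is not read against the share of all genes. The median member log2 fold change at E16 was 0.95 for forestomach against small intestine, beside 0 over all tested genes. Leaving out small intestine replicate 2 raised the E12 counts against small intestine to 7 and 8, and with only the groups compared in the fit that of hindstomach was 0. Without E16 hindstomach replicate 1 the E16 count between stomach regions was 0, and without forestomach replicate 2 or either small intestine library the E16 count between forestomach and small intestine was 3.

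The second question was how they change with age. Between E12 and E14 forestomach had 2 of 10 called (12.7% of all tested genes), hindstomach 6 (17.2%) and small intestine 7 (16.2%). From E14 to E16, forestomach had 4 (37.7%) and hindstomach 4 (22.0%), while small intestine had 5 (25.6%). From E16 to E18 in small intestine 7 of 10 were called (42.1%), of which 2 rose and 5 fell, with a median of -1.55 on the log2 scale beside -0.05 over all tested genes. These counts rest on 2 libraries per group. The forestomach count from E12 was 1 without E12 forestomach replicate 2 or either E14 forestomach library and 4 with only the groups compared. Without E14 hindstomach replicate 2 the hindstomach counts were 3 and 2, and without E16 hindstomach replicate 2 the second was 2. For small intestine the count from E12 was 4 without E12 replicate 1 or E14 replicate 2 and 3 with only the groups compared in the fit, and that from E14 was 3 without either E14 library or E16 replicate 2.

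Among the ligands, Bmp2 encodes a secreted protein closely related to that of Bmp4. It was at the bottom of its range in the libraries labelled E12 forestomach, at 2.28 and 0.566 CPM, and in E12 small intestine, at 0.0319 and 3.81 CPM, where replicate 1 held 1 count. In E12 hindstomach it was 31.1 and 36.2 CPM, and these 2 libraries did not overlap the other E12 groups. Bmp2 was lower in E12 forestomach than in E12 hindstomach with a log2 difference of -4.61 (SE 0.77, adjusted p = 0.000467 by edgeR; -5.89 to -3.88 with 1 library left out) and higher in E12 hindstomach than in small intestine by 4.12 (SE 0.75, adjusted p = 0.00104; 0.296 with only the groups compared in the fit). The second value ran from 3.14 to 9.83 with 1 library left out. Later the order changed. At E14 Bmp2 was 6.53 and 4.01 CPM in forestomach, 9.72 and 9.04 in hindstomach and 24.9 and 26.0 in small intestine, a log2 fold change of -2.28 (SE 0.69, adjusted p = 0.0245) for forestomach against small intestine that was lost without any 1 of the 4 libraries (adjusted p up to 0.188).

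By E16 Bmp2 was 54.5 and 40.9 CPM in forestomach, 41.5 and 39.9 in hindstomach and 33.2 and 33.5 in small intestine. The stomach regions overlapped, small intestine lay below them, and no organ difference was called. The increase from E14 to E16 was 3.17 in forestomach (SE 0.71, adjusted p = 0.00105), kept in each fit with a library left out, and 2.12 in hindstomach (SE 0.67, adjusted p = 0.0195), lost without any 1 of the 4 libraries (adjusted p up to 0.117). In small intestine Bmp2 had risen earlier, by 3.71 from E12 to E14 (SE 0.74, adjusted p = 0.00102; 0.232 with only the groups compared in the fit), a value that ran from 2.74 to 9.43 with 1 library left out. In hindstomach Bmp2 fell by 1.84 from E12 to E14 (SE 0.67, adjusted p = 0.0419), a call lost without any 1 of those libraries (adjusted p up to 0.181).

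Bmp4 is the BMP of gut mesenchyme in particular. It was highest in E16 forestomach, at 37.5 and 37.7 CPM, followed by E16 hindstomach at 12.75 and 12.9 and E16 small intestine at 9.35 and 13.6. The hindstomach values lay within the range of small intestine, and forestomach lay above both, with no call against hindstomach (1.53, SE 0.595, edgeR adjusted p = 0.0566). At E14 it was 1.95 and 3.26 CPM in forestomach, 0.633 and 0.249 (19 and 7 counts) in hindstomach and 2.82 and 3.28 in small intestine. The increase from E14 to E16 was called in all 3 organs: 3.83 in forestomach (SE 0.66, adjusted p = 9.19e-05), 4.84 in hindstomach (SE 0.71, adjusted p = 4.97e-05) and 1.93 in small intestine (SE 0.61, adjusted p = 0.0166), the last lost without either E14 library or E16 replicate 2 (adjusted p up to 0.111).

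At E12 Bmp4 was 2.21 and 2.39 CPM in forestomach, 3.57 and 2.32 in hindstomach and 15.5 and 4.87 in small intestine, so the 2 small intestine libraries differed more from each other than the stomach regions did. It was lower in E14 than in E12 hindstomach by -2.71 (SE 0.67, adjusted p = 0.0048; 0.0737 without E14 hindstomach replicate 2). The fall in small intestine, -1.75 (SE 0.60, adjusted p = 0.0356), was lost without E12 replicate 1 or either E14 library (adjusted p up to 0.436) and with only the groups compared in the fit (0.199) or the E16 forestomach libraries left out of it (0.0532), and that of E12 forestomach against small intestine, -2.16 (SE 0.61, adjusted p = 0.0227), without either forestomach library or small intestine replicate 1 or with only the groups compared (up to 0.257). At E14 Bmp4 was higher in forestomach than in hindstomach by 2.54 (SE 0.67, adjusted p = 0.0165), lost without forestomach replicate 2 or hindstomach replicate 2 (up to 0.202) and after thinning (0.0519), and lower in hindstomach than in small intestine by -2.76 (SE 0.67, adjusted p = 0.0104), lost without hindstomach replicate 2 (0.15). At E16 it was higher in forestomach than in small intestine by 1.68 (SE 0.60, adjusted p = 0.0272), lost without any 1 of the 4 libraries (up to 0.165).

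From E18 on Bmp4 was below 1 CPM except in adult wild type replicate 2, at 2.295 CPM. It had 0 counts in both E18 wild-type libraries, at least 50.03-fold lower than at E16 (edgeR adjusted p = 8.33e-07). Libraries labelled deleted at E13 held 7 and 8 counts, those labelled deleted at E15 held 9 and 5. There were 3 and 29 counts in adult wild type and 0 in both libraries labelled adult knockout.

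Markers of mesenchyme were, like Bmp4, higher at E16 and lower at E18, and went with Bmp4 in some but not all comparisons of the E12 and E14 groups. The 12 markers in the table (Vim, Pdgfra, Pdgfrb, Dcn, Lum, Twist1, Foxf1, Foxf2, Tcf21 and collagen genes) summed to 110 to 331 CPM in the E12 and E14 libraries and to 10983 and 13027 in E16 forestomach, 5672 and 6033 in E16 hindstomach and 1309 and 1397 in E16 small intestine. They summed to 32.3 and 32.9 CPM at E18, with 4 of 12 at 0, and to 5.56 to 21.1 in the adult, with at least 6 of 12 at 0. The E14 stomach regions, between which Bmp4 was called, overlapped in these markers (110 to 122 CPM in forestomach, 110 to 121 in hindstomach). In hindstomach the markers were 154 to 231 CPM at E12, above E14, and Bmp4 fell. In small intestine they were 288 to 295 CPM at E12 and 296.5 to 331 at E14, while Bmp4 fell. Foxf1, a mesenchymal transcription factor gene on that list, was the gene most like Bmp4 over the 13 embryonic group means (Pearson r = 0.951). At E14 Foxf1 was 2.64 to 3.94 CPM in forestomach and 1.07 to 1.60 in hindstomach. In small intestine it fell from 18.2 to 37.45 CPM at E12 to 8.16 to 10.4 at E14. E12 hindstomach held 1.25 to 11.5 CPM of Foxf1, which overlapped E14 hindstomach. The part of these markers in the Bmp4 differences was not tested. In sorted tissue fewer cells of a type and less RNA per cell cannot be told apart. Other markers were also high in E16 forestomach. There 6 smooth muscle genes summed to 15478 and 19909 CPM and 9 erythroid genes, 6 of them at 0 in all libraries, to 13630 and 18399. The 6 immune genes summed to 642 to 852.5 CPM there and to 665 to 831 in E16 hindstomach. In E16 forestomach 5 endothelial genes summed to 129 to 155 CPM (hindstomach 109 to 158) and 3 mesothelial genes to 194 to 269.6 (hindstomach 118 to 119.6). Of the enteric neural markers, Ret was 188 to 196 CPM in E16 hindstomach against 23.9 to 24.5 in E16 small intestine, and Tubb3 was 208 to 215 against 9.63 to 15.9.

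**Figure D2:**
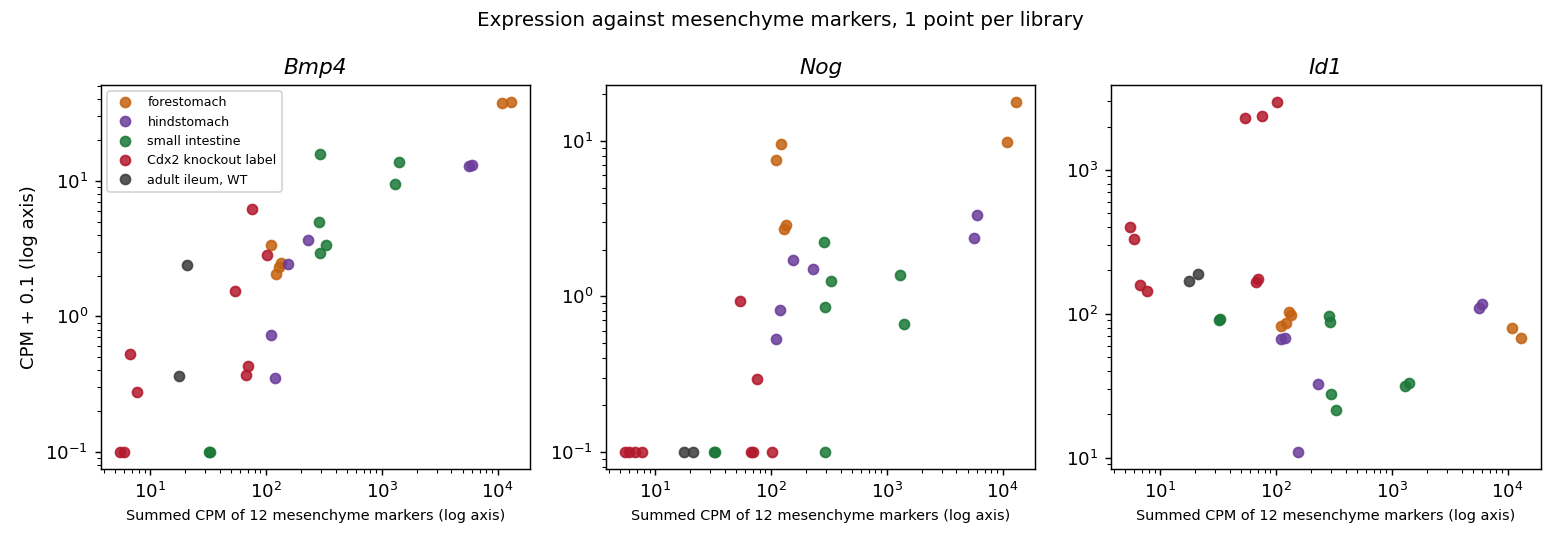
Bmp4, Nog and Id1 against the summed level of 12 mesenchyme markers, with 1 point per library and both axes on a log scale in CPM (0.1 added on the vertical axis). Bmp4 was highest in the E16 forestomach libraries, where the markers were highest, and Id1 was highest in the 3 libraries labelled deleted at E10, where the markers summed to 54.8 to 103 CPM.

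Bmp7, a ligand that often pairs with Bmp2 or Bmp4, was present in all wild-type embryonic groups up to E16 and dropped after that. It was 74.4 and 90.4 CPM in E12 forestomach, 48.9 and 49.95 in E12 hindstomach, 45.4 and 55.3 in E12 small intestine, 86.9 and 102 in E14 forestomach, 74.7 and 86.4 in E14 hindstomach and 50.5 and 52.2 in E14 small intestine. None of the organ comparisons at E12 or E14 was called. At E16 it was 63.3 and 34.65 CPM in forestomach, 40.4 and 35.1 in hindstomach and 88.35 and 75.75 in small intestine, and hindstomach was lower than small intestine by -1.13 (SE 0.22, adjusted p = 0.00046). The fall in hindstomach from E14 to E16, -1.09 (SE 0.22, adjusted p = 0.00077), came under the fold threshold without E14 or E16 hindstomach replicate 2 (-0.989 and -0.997) and with RLE scaling (-0.96). In E18 small intestine Bmp7 was 2.065 and 2.10 CPM, a log2 fold change of -5.29 from E16 (SE 0.28, adjusted p = 1.93e-11) that was called under every alternative run. At E16 Bmp7 was lower in both hindstomach libraries than in both small intestine libraries, while the mesenchyme markers were higher. From E16 to E18 in small intestine these markers fell as Bmp7 did, from 1309 to 1397 CPM to 32.3 to 32.9. The part of the markers in the Bmp7 differences was not tested.

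Nog was low throughout and highest in forestomach at E14 and E16. It was 9.49 and 7.37 CPM in E14 forestomach and 9.78 and 17.5 (66 and 120 counts) in E16 forestomach, 2.27 and 3.25 in E16 hindstomach and 1.28 and 0.563 (27 and 11 counts) in E16 small intestine. All 5 small intestine groups that are E18, adult or labelled deleted at E13 or E15 had 0 counts in every library. In E12 small intestine replicate 1 had 0 counts and replicate 2 had 71. Forestomach was higher than small intestine at E16 by 3.86 (SE 1.32, adjusted p = 0.0241), lost without forestomach replicate 2 or either small intestine library (adjusted p up to 0.141). At E18 Nog was at least 4.00-fold lower than at E16 (adjusted p = 0.0182), lost without E16 replicate 1 or either E18 library (up to 0.103). In E14 hindstomach Nog was 0.433 and 0.711 CPM. The Nog difference between E14 forestomach and hindstomach was 3.87 and not called (SE 1.32, edgeR adjusted p = 0.0746). Mesenchyme markers overlapped between these E14 regions, while smooth muscle markers summed to 28.0 to 30.9 CPM in forestomach and 13.8 to 14.2 in hindstomach. At E16 mesenchyme markers summed to 10983 to 13027 CPM in forestomach against 1309 to 1397 in small intestine. Smooth muscle markers summed to 15478 to 19909 against 204 to 258. In E18 small intestine the 2 lists summed to 32.3 to 32.9 and 3.9 to 4.97 CPM. The part of these markers was not tested.

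The inhibitory Smads went opposite ways in the small intestine between E16 and E18. Smad6 was 37.4 and 37.1 CPM at E14, 84.5 and 84.96 at E16 and 18.2 and 17.2 at E18, and the 3 stages did not overlap. It rose by 1.20 from E14 to E16 (SE 0.26, adjusted p = 0.00113) and fell by 2.25 from E16 to E18 (SE 0.27, adjusted p = 1.03e-06), both called under every alternative run. At these 3 stages mesenchyme markers summed to 296.5 to 331, 1309 to 1397 and 32.3 to 32.9 CPM. Endothelial markers summed to 1.68 to 1.98, 39.3 to 43.35 and 3.29 to 4.56 CPM. The part of these markers in the Smad changes was not tested. Smad7 was 15.8 and 21.1 CPM at E14, 12.3 and 10.9 at E16 and 40.3 and 39.6 at E18, and rose by 1.80 from E16 to E18 (SE 0.31, adjusted p = 5.77e-05).

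Neither Smad was called between forestomach and hindstomach at any stage. Smad6 ranged from 29.6 to 59.3 CPM over the 12 stomach libraries and Smad7 from 6.96 to 24.0. Smad7 fell in forestomach from 17.9 and 24.0 CPM at E14 to 6.96 and 10.2 (47 and 70 counts) at E16, by -1.30 (SE 0.32, adjusted p = 0.00214), a call lost with RLE scaling (-0.999) and DESeq2, which shifted the median of all genes in that comparison by 0.26 and 0.28. Smad7 was also higher in E12 hindstomach than in E12 small intestine by 1.02 (SE 0.30, adjusted p = 0.0281), lost without replicate 1 of either group (adjusted p up to 0.283) and with only the groups compared in the fit (0.419), and rose in small intestine from E12 to E14 by 1.24 (SE 0.30, adjusted p = 0.0047), lost without E12 replicate 1 or E14 replicate 2 (up to 0.0614) and with only the groups compared (0.161). E12 small intestine held Smad6 at 15.7 and 39.7 CPM, a wider spread than any other wild-type embryonic pair.

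Of the Id genes, Id4 had the sharpest pattern over organs and stages. It was 111 and 105.5 CPM in the libraries labelled E12 forestomach, 3.45 and 3.37 in those labelled E12 hindstomach and 7.71 and 3.63 in E12 small intestine. At E14 the order of the labelled stomach regions was reversed, with 6.41 and 5.62 CPM in forestomach and 102 and 100 in hindstomach. E14 small intestine held 2.12 and 1.75 CPM. At E16 Id4 was 74.7 and 80.7 CPM in forestomach, 43.6 and 41.7 in hindstomach and 10.7 and 10.3 in small intestine. The stomach groups lay above the small intestine of their stage, except E12 hindstomach, which lay below it and was not called. Against small intestine, forestomach was higher by 4.25 at E12 (SE 0.33, adjusted p = 4.66e-08), 1.62 at E14 (SE 0.32, adjusted p = 0.00116) and 2.86 at E16 (SE 0.32, adjusted p = 4.23e-07), and hindstomach by 2.01 at E16 (SE 0.31, adjusted p = 3.84e-05).

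The Id4 differences were large against their error. Forestomach against hindstomach was 4.98 at E12 (SE 0.35, adjusted p = 8.47e-09) and -4.08 at E14 (SE 0.33, adjusted p = 7.45e-08), and hindstomach against small intestine was 5.69 at E14 (SE 0.36, adjusted p = 3.51e-09). From E12 to E14 Id4 fell by 4.17 in forestomach (SE 0.33, adjusted p = 4.95e-08) and rose by 4.90 in hindstomach (SE 0.35, adjusted p = 5.38e-09). From E14 to E16 it rose by 3.68 in forestomach (SE 0.33, adjusted p = 2.99e-08) and fell by 1.25 in hindstomach (SE 0.29, adjusted p = 0.00285). The E12 groups in these values are the ones whose Gata4, Nkx6-3 and Hox values go against their labels, and the part of that in the Id4 order was not tested. In the small intestine Id4 fell from E12 to E14 by 1.54 (SE 0.32, adjusted p = 0.00149; -0.88 without E12 replicate 1, and 0.214 with only the groups compared in the fit), rose by 2.43 to E16 (SE 0.33, adjusted p = 8.73e-06) and fell by 3.36 to E18 (SE 0.38, adjusted p = 4.17e-07), where it had 13 and 20 counts.

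**Figure D3:**
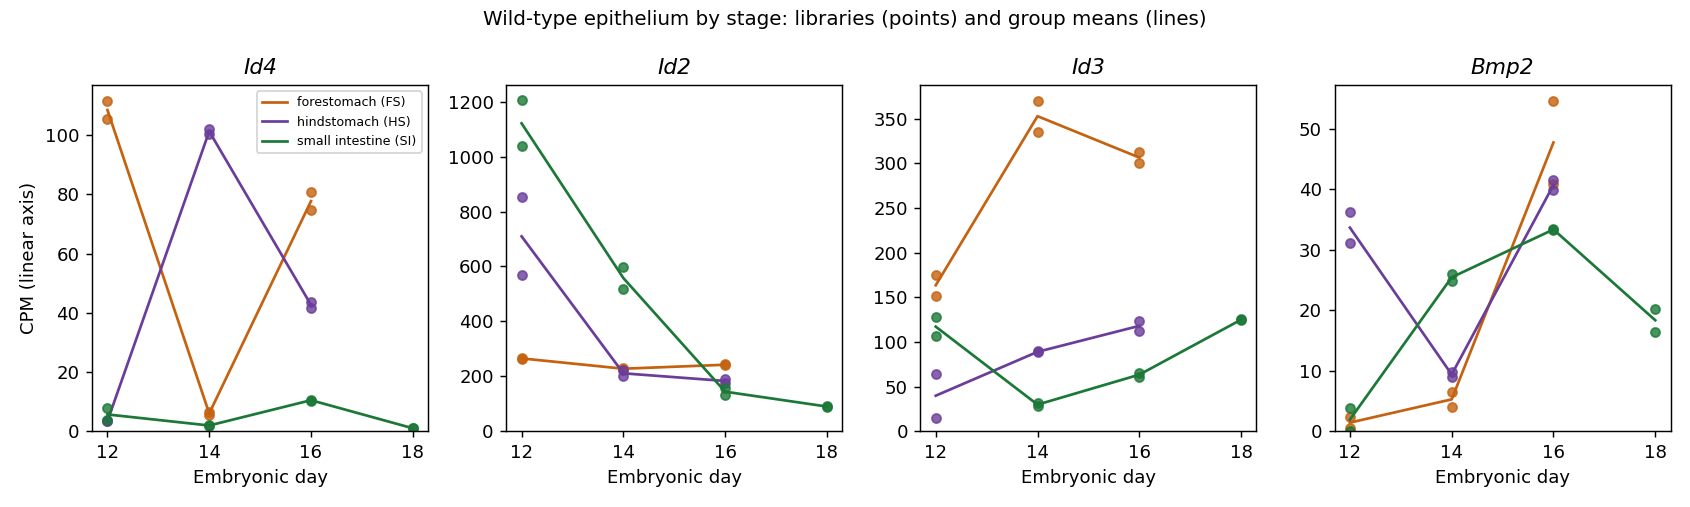
Id4, Id2, Id3 and Bmp2 in wild-type epithelium by embryonic day, in CPM on a linear axis that starts at 0. Points are libraries and lines join the group means of forestomach (FS), hindstomach (HS) and small intestine (SI). Id4 in forestomach and hindstomach changed places between E12 and E14, and Id2 in small intestine fell from 1121 to 89.9 CPM over the 4 stages.

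Id2, which is needed for the formation of lymph nodes and Peyer's patches, fell with age in the small intestine. Its levels were 1037 and 1205 CPM at E12, 599 and 516 at E14, 132 and 157 at E16 and 86.4 and 93.4 at E18, and no 2 stages overlapped. The fall was -1.01 from E12 to E14 (SE 0.15, adjusted p = 6.53e-05; -0.90 without replicate 2 of either stage and -0.999 with no filter on low counts) and -1.94 from E14 to E16 (SE 0.15, adjusted p = 1.20e-08). The last step, -0.67 (SE 0.15, adjusted p = 0.000777), was under the fold threshold. In forestomach Id2 lay between 224.5 and 267 CPM in all 6 libraries, and no stage change was called. In E12 hindstomach it was 568 and 852 CPM, then 200.4 and 221 at E14 and 190 and 176.5 at E16, with a fall of 1.75 from E12 to E14 (SE 0.15, adjusted p = 8.04e-08). Forestomach was lower than small intestine by -2.09 at E12 (SE 0.15, adjusted p = 1.65e-08) and -1.29 at E14 (SE 0.15, adjusted p = 2.70e-06), and no organ difference reached the fold threshold at E16. Hindstomach was lower than small intestine by -1.40 at E14 (SE 0.15, adjusted p = 2.66e-06), and E12 forestomach was lower than E12 hindstomach by -1.43 (SE 0.15, adjusted p = 2.07e-06).

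Id3 was highest in forestomach at E14 and E16. It was 175 and 152 CPM in E12 forestomach, 370.0 and 335.5 at E14 and 312.5 and 300.4 at E16, above every other wild-type embryonic library at E14 and E16. In hindstomach it was 64.5 and 15.15 CPM at E12, 89.6 and 88.25 at E14 and 112 and 124 at E16, and in small intestine 107 and 127, 31.7 and 27.9, 61.0 and 65.7, and 125 and 125 at E18. Forestomach against hindstomach was 1.98 at E14 (SE 0.35, adjusted p = 0.000595) and 1.36 at E16 (SE 0.35, adjusted p = 0.00528; 0.051 without E16 hindstomach replicate 1). Forestomach against small intestine was 3.56 at E14 (SE 0.38, adjusted p = 9.54e-07) and 2.25 at E16 (SE 0.36, adjusted p = 3.73e-05). Hindstomach against small intestine was 1.58 at E14 (SE 0.35, adjusted p = 0.00519; 0.0564 without E14 small intestine replicate 2). Id3 rose from E12 to E14 by 1.12 in forestomach (SE 0.34, adjusted p = 0.0226), lost without any 1 of the 4 libraries (up to 0.132), and by 1.17 in hindstomach (SE 0.35, adjusted p = 0.0151), lost without E12 hindstomach replicate 2 or either E14 library, after thinning (0.986) and with only the groups compared in the fit (adjusted p = 0.17). At E12 the 2 hindstomach libraries differed 64.5 to 15.15 CPM, and E12 hindstomach was lower than E12 forestomach (2.03 the other way, SE 0.35, adjusted p = 0.000662) and than small intestine (-1.56, SE 0.35, adjusted p = 0.00543; -0.87 without hindstomach replicate 2). With only the groups compared in the fit both of these E12 calls were lost (adjusted p = 0.0507 and 0.367), and the first ran from 1.34 to 3.42 with 1 library left out.

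Id1 separated stomach from intestine at E14 and E16. It was 86.8 and 82.4 CPM in E14 forestomach, 66.3 and 67.5 in E14 hindstomach and 27.5 and 21.25 in E14 small intestine, and 79.7 and 68.3, 110 and 117, and 31.5 and 32.8 in the same order at E16. Hindstomach was higher than small intestine by 1.46 at E14 (SE 0.28, adjusted p = 0.00175) and by 1.81 at E16 (SE 0.29, adjusted p = 6.18e-05), and forestomach by 1.79 (SE 0.29, adjusted p = 0.000126) and 1.17 (SE 0.29, adjusted p = 0.00229). At E12 it was 102 and 98.2 CPM in forestomach, 87.8 and 95.7 in small intestine and 32.2 and 10.85 in hindstomach. E12 forestomach was higher than hindstomach by 2.22 (SE 0.29, adjusted p = 2.93e-05), hindstomach was lower than small intestine by -2.10 (SE 0.29, adjusted p = 6.12e-05; 0.187 with only the groups compared in the fit), and hindstomach rose by 1.64 to E14 (SE 0.285, adjusted p = 0.00024). With 1 library left out these 3 values ran from 1.64 to 3.20, from -3.08 to -1.52 and from 1.07 to 2.63, and each was kept. In the small intestine Id1 and Id3 fell together from E12 to E14, by -1.91 (SE 0.29, adjusted p = 8.00e-05) and -1.98 (SE 0.35, adjusted p = 0.000433). Id1 then rose by 1.51 from E16 to E18 (SE 0.29, adjusted p = 0.000169), and Id3 rose by 1.10 from E14 to E16 (SE 0.35, adjusted p = 0.0167), which was lost without either E14 library or E16 replicate 2 (adjusted p up to 0.103).

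The third question was whether the change from E14 to E16 differed between organs, tested as a difference of log2 fold changes. Of the 10 genes 1 was called between the stomach regions (11.8% of all tested genes). Set against small intestine, forestomach had 6 (25.4%) and hindstomach 4 (13.1%). The 1 gene was Id4, whose change was higher in forestomach by 4.92 (SE 0.44, adjusted p = 3.96e-07). The Bmp7 change was lower in the stomach regions than in small intestine, by -1.65 in forestomach (SE 0.31, adjusted p = 0.00042) and -1.78 in hindstomach (SE 0.31, adjusted p = 0.000453), and Id2 differed by 2.01 (SE 0.21, adjusted p = 6.51e-07) and 1.73 (SE 0.21, adjusted p = 1.19e-05), with a called fall in small intestine and no call in the stomach regions. Of the others, the forestomach change was higher for Bmp2 (2.76, SE 0.94, adjusted p = 0.0308) and Id4 (1.24, SE 0.44, adjusted p = 0.0364) and lower for Smad6 (-1.15, SE 0.37, adjusted p = 0.0228) and Id3 (-1.32, SE 0.49, adjusted p = 0.0457), and the hindstomach change was higher for Bmp4 (2.91, SE 0.88, adjusted p = 0.0302) and lower for Id4 (-3.68, SE 0.44, adjusted p = 1.04e-05). The calls of Bmp2, Smad6, Id3 and Id4 for forestomach against small intestine were lost without most single libraries, as was that of Bmp4 for hindstomach against small intestine. That of Id3 was also lost with RLE scaling (edgeR adjusted p = 0.0751) and that of Bmp4 after thinning (0.0502). For forestomach, that of Id4 was also lost in the fit without the E12 stomach libraries (0.0534). The forestomach comparisons share the E16 forestomach libraries with their mesenchyme markers. The second count was 2 or 3 without 7 of its 8 libraries, each of them other than E16 forestomach replicate 2.

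The fourth question was what the knockout libraries show. Libraries labelled deleted at E10 differed from E16 small intestine in 7 of the 10 genes (51.5% of all tested genes), and so did those labelled deleted at E13 (7 genes, 39.5%). Against E18 small intestine, 3 were called in those labelled deleted at E15 (17.5%). The first and the second group differed from each other in 8 of 10, all higher after the deletion at E10 (57.4%). In adult ileum 4 of 8 tested genes were called (20.4%). The count at E15 was 1 without either E18 library or knockout replicate 1, and the adult count was 1 without knockout replicate 1. The first 2 comparisons share the E16 wild-type libraries.

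Id1, Id2 and Id3 were higher in the libraries labelled deleted at E10 than in any other library on the TMM scale. Id1 was 2378, 2944 and 2309 CPM there against 31.5 and 32.8 in E16 small intestine, Id2 was 2128, 1889 and 1948 against 131.5 and 156.5, and Id3 was 1890, 1806 and 1782 against 61.0 and 65.7. The 3 libraries lay close together for these genes and did not overlap any other group. The log2 fold changes were 6.26 for Id1 (SE 0.34, adjusted p = 1.17e-11), 3.75 for Id2 (SE 0.16, adjusted p = 7.51e-13) and 4.81 for Id3 (SE 0.39, adjusted p = 2.19e-09), and all 3 were called under every alternative run. Id4 was 29.3, 15.7 and 21.1 CPM against 10.7 and 10.3, a change of 1.03 (SE 0.28, adjusted p = 0.00373) that came under the fold threshold without replicate 1 (0.76).

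The size of these differences depends on how libraries are scaled. In the 3 libraries Cym, the gene for chymosin, a milk-clotting protease of the suckling stomach, took 8.26% to 11.7% of all counts. Scaled by total counts, Id1 was 1604, 1659 and 1504 CPM against 36.5 and 38.4. The Id1 ratio of group means was 79.1 with TMM and 42.4 by total counts, that of Id2 was 13.8 and 7.49, and that of Id3 was 28.8 and 15.6. For Id4 it was 2.10 and 1.16. The next highest group means were 364 CPM for Id1 (adult knockout), 1121 for Id2 (E12 small intestine) and 353 for Id3 (E14 forestomach). By total counts the Id2 level was 0.894 of that in E12 small intestine, so on that scale Id2 was not highest after the deletion at E10, while Id1 and Id3 were 6.67 and 2.40 times the next group. The 12 mesenchyme markers summed to 54.8 to 103 CPM in these libraries against 1309 to 1397 in E16 small intestine, smooth muscle markers to 148 to 289.7 against 204 to 258, and mesothelial markers to 59.98 to 107 against 59.4 to 66.4. The squamous keratin gene Krt5 was 29.8 to 166 CPM there and at most 0.472 in E16 small intestine, and the part of these markers in the Id difference was not tested.

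To show the sequence before the Id genes, 250 bases upstream of the start were taken from RefSeq on GRCm38.p6. Windows were read for 5 of the 10 genes, Bmp4, Smad6, Id2, Id3 and Id4. The other genes, Id1 among them, were not searched. Both strands were searched for GGCGCC, a palindrome bound by Smads of the BMP branch, and for CAGAC, the core Smad-binding element, which reads GTCTG on the opposite strand. The capitals mark matches. The windows of Bmp4 and Smad6 held neither.
Id2 (chr12:25096093-25096342, minus strand): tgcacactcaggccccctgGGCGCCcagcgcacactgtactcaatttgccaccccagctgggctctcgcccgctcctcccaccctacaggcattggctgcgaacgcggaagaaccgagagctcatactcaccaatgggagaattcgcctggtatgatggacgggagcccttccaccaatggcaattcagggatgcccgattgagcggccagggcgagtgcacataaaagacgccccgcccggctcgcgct
Id3 (chr4:136143572-136143821, plus strand): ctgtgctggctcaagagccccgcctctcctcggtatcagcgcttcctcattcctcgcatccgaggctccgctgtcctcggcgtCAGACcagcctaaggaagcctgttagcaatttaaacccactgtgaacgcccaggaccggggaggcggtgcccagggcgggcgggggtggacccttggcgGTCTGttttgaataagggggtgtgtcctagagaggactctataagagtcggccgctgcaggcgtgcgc
Id4 (chr13:48260866-48261115, plus strand): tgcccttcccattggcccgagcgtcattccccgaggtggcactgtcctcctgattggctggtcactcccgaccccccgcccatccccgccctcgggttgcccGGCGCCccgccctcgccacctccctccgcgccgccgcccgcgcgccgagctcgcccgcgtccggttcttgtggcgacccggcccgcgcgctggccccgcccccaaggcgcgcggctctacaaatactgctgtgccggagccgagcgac
The windows of Id2 and Id4 each held GGCGCC in 1 place and that of Id3 held 2 of the other element. Of 32851 promoter windows of the same length, 9.59% held GGCGCC and 42.2% the other element, so a match describes the window and is no sign of binding.

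Bmp4, Bmp7 and Smad6 went the other way in the same libraries. Bmp7 was 17.3, 14.9 and 11.15 CPM, a log2 fold change of -2.54 against E16 small intestine (SE 0.20, adjusted p = 1.90e-09). Bmp4 was 6.13, 2.745 and 1.44 CPM (95, 34 and 12 counts), a change of -1.75 (SE 0.54, adjusted p = 0.00868; 0.0716 without E16 replicate 2). Smad6 was 33.9, 32.05 and 43.3 CPM, a change of -1.26 (SE 0.23, adjusted p = 0.000102). Bmp2 was 28.9, 29.0 and 34.5 CPM against 33.2 and 33.5 and did not pass the test (-0.16, SE 0.59, adjusted p = 0.84), nor did Smad7 pass the fold threshold (0.86, SE 0.28, adjusted p = 0.0126), which it reached with RLE scaling, DESeq2 and thinning (1.00 to 1.04). By total counts the values of these libraries were lower. The ratio of the E16 small intestine mean to that of these libraries went from 5.68 with TMM to 10.5 for Bmp7, from 3.34 to 6.07 for Bmp4, from 2.33 to 4.28 for Smad6 and from 1.08 to 2.00 for Bmp2, whose groups then did not overlap (19.5, 16.3 and 22.5 CPM against 38.5 and 39.2). With RLE scaling the Bmp2 ratio was 0.975, so the order of its means depends on the scaling. For Smad7 the ratio was 0.534 with TMM, 0.988 by total counts and 0.48 with RLE.

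In the libraries labelled deleted at E13, taken at E16, the values are set beside those of E18 wild type, without a test between them. Bmp7 was 2.65 and 2.32 CPM (E18 2.065 and 2.10), Smad6 16.9 and 15.7 (18.2 and 17.2), Smad7 37.05 and 35.2 (40.3 and 39.6), Id4 1.69 and 0.788 (0.995 and 1.03) and Nog 0 counts (0). Bmp2 was 23.35 and 24.25 CPM (16.45 and 20.25), Id2 118 and 117 (86.4 and 93.4) and Bmp4 7 and 8 counts (0). Id4 overlapped E18 and Nog had no counts in either group, while the other 8 genes, with Id1 and Id3 given below, did not overlap E18. Against E16 small intestine, Bmp7 changed by -5.03 (SE 0.27, adjusted p = 2.13e-11), Bmp4 by -5.22 (SE 0.74, adjusted p = 1.02e-05), Smad6 by -2.37 (SE 0.27, adjusted p = 5.74e-07), Smad7 by 1.66 (SE 0.30, adjusted p = 0.00014) and Id4 by -3.05 (SE 0.35, adjusted p = 5.69e-07). Nog was at least 7.39-fold lower (adjusted p = 0.0107; up to 0.0644 without either knockout library). Id1 was 166 and 175 CPM, higher by 2.42 (SE 0.29, adjusted p = 1.04e-06) and above the 92.2 and 90.1 of E18. Id2, at 118 and 117 CPM, and Id3, at 114 and 118 (125 and 125 at E18), were not called (-0.28 and 0.89, adjusted p = 0.115 and 0.0371). The 2 replicates of this group differed little beyond counting noise (chi-square per degree of freedom 2.4), as did those of E18 wild type (1.5). The value was 4.8 in those labelled deleted at E15 and 9.19 or more in every other group. Cdx2 was not lower there, and the control mice are CD1. Mesenchyme markers summed to 67.2 to 69.7 CPM in these libraries against 1309 to 1397 in E16 small intestine, smooth muscle markers to 4.65 to 6.18 against 204 to 258 and endothelial markers to 1.91 to 2.57 against 39.3 to 43.35, and their part was not tested.

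**Figure D4:**
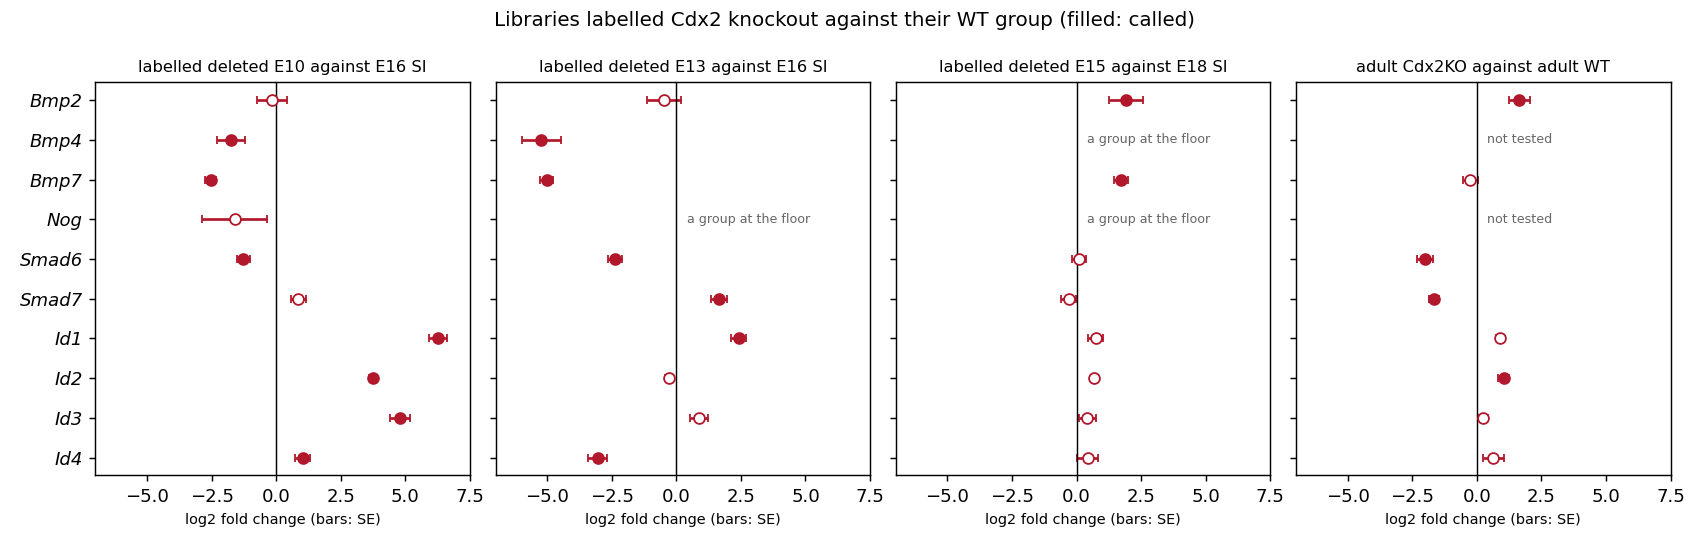
Log2 fold change of each gene in 4 comparisons of libraries labelled Cdx2 knockout with their wild-type group, with the standard error as a bar. Filled points were called. Genes with a group at the floor or not tested are written out. The Id1, Id2 and Id3 points lie at 6.26, 3.75 and 4.81 for the group with the E10 label, and the Bmp7 points at -2.54 there and -5.03 for the group with the E13 label.

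The libraries labelled deleted at E10 were compared with those labelled deleted at E13 directly, since both groups are E16 small intestine on a mixed background. Id1 (3.84, SE 0.30, adjusted p = 7.07e-10), Id2 (4.03, SE 0.16, adjusted p = 7.03e-14), Id3 (3.92, SE 0.37, adjusted p = 1.32e-08) and Id4 (4.08, SE 0.35, adjusted p = 2.76e-09) were all higher in the E10 group. Bmp4 was higher by 3.47 (SE 0.69, adjusted p = 0.000208) and Bmp7 by 2.49 (SE 0.24, adjusted p = 1.91e-08). Smad6 was higher by 1.10 (SE 0.25, edgeR adjusted p = 0.000639). It was under the fold threshold at 0.967 without replicate 3 of the E10 group and at 0.965 with the replicate block. The Nog call rests on 3, 0 and 7 counts against 0 and 0, at least 2.77-fold (edgeR adjusted p = 0.042). It was lost in 4 of the 5 fits that left out a library (0.168 without replicate 3 of the E10 group). It was also lost after thinning (0.15), with the replicate block (0.167) and in the fit without the E12 stomach libraries (0.0613). Smooth muscle markers summed to 148 to 289.7 CPM in the E10 group against 4.65 to 6.18 and mesothelial markers to 59.98 to 107 against 10.75 to 10.98, and their part was not tested. The 2 groups also differ in Cre driver and tamoxifen, which cannot be told apart from the labelled age of deletion, and Cdx2 was lower than in wild type in the E10 group but not in the E13 group.

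In the libraries labelled deleted at E15, Bmp7 was 6.64 and 6.85 CPM against 2.065 and 2.10 in E18 wild type, higher by 1.71 (SE 0.27, adjusted p = 8.01e-05). Bmp2 was 69.3 and 67.8 CPM against 16.45 and 20.25, higher by 1.91 (SE 0.67, adjusted p = 0.0353), a call lost without any 1 of the 4 libraries (adjusted p up to 0.191) and with RLE scaling (0.0502) or DESeq2 (0.0529). Bmp4, with 9 and 5 counts against 0, was at least 1.32-fold higher (adjusted p = 0.0191), lost without either E18 library or knockout replicate 1 (up to 0.13) and after thinning to the lowest total (0.352). No Id gene was called. Id2 was 139.5 and 148 CPM against 86.4 and 93.4 (0.69, SE 0.15, adjusted p = 0.00142), under the fold threshold, and Id1 was 158 and 143 against 92.2 and 90.1 (0.74, SE 0.28, adjusted p = 0.0516). Immune markers summed to 8.55 to 9.93 CPM in these libraries against 267 to 269 in E18 wild type and mesenchyme markers to 6.78 to 7.81 against 32.3 to 32.9, and their part was not tested.

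In adult ileum Bmp2 was 196.5 and 267 CPM in the libraries labelled knockout against 44.1 and 91.3 in wild type, higher by 1.65 (SE 0.39, adjusted p = 0.0335; 0.09 and 0.13 without knockout replicate 1 and 2). Smad6 was 9.20 and 14.3 CPM against 35.5 and 49.8, lower by -1.99 (SE 0.31, adjusted p = 0.0117; 0.0592 without knockout replicate 1). Smad7 was 32.45 and 42.7 CPM against 102 and 116, lower by -1.67 (SE 0.19, adjusted p = 0.0059), and this call was kept in every alternative run. Id2 was 99.1 and 67.9 CPM against 37.15 and 37.6, higher by 1.03 (SE 0.20, adjusted p = 0.021; up to 0.0747 without either wild-type library or knockout replicate 1). Id1, at 399 and 329.5 CPM against 169 and 189, was under the fold threshold (0.90, SE 0.15, edgeR adjusted p = 0.0135). It passed that threshold without knockout replicate 2 (1.025) and was called with all 31 libraries in 1 fit. Id3 (0.23, SE 0.20, adjusted p = 0.407) and Bmp7 (-0.26, SE 0.29, adjusted p = 0.523) did not pass the test. Mesenchyme markers summed to 5.56 to 6.03 CPM in the libraries labelled knockout against 17.9 to 21.1 in wild type and immune markers to 6.14 to 6.77 against 33.7 to 71.85. Of the enteric neural markers, Ret, which encodes a receptor tyrosine kinase, was 346 to 497 CPM against 6.81 to 14.9, while Sox10 had no counts and Elavl4 and Tubb3 were below 1 CPM in all 4 libraries. The part of these markers was not tested.

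Other genes of the pathway were taken from a list of 45 ligands, receptors, Smads, antagonists and targets, of which the embryonic fit tested 41 and the adult fit 22. Between organs the count called was 5, 9 and 8 at E12, 3, 5 and 5 at E14, and 6, 26 and 20 at E16, in the order of the organ comparisons above. The share of all tested genes was 7.11%, 10.1% and 9.28% at E12, 8.46%, 11.9% and 6.83% at E14, and 20.1%, 35.0% and 25.7% at E16. At E16 23 of the 26 were higher in forestomach and all 20 higher in hindstomach than in small intestine, with medians of 2.15 and 1.52 on the log2 scale beside 0 and 0.18 over all tested genes. Fst, the gene of the activin and BMP antagonist follistatin, was at the floor in E16 small intestine and at least 592.5-fold higher in forestomach (adjusted p = 2.01e-07) and at least 101-fold in hindstomach (adjusted p = 6.94e-06). Msx2, a homeobox gene and BMP target, was at least 18.2-fold higher in forestomach (adjusted p = 0.000438) and at least 6.66-fold in hindstomach (adjusted p = 0.00343). These E16 differences go with the mesenchyme markers given above, and the part of those was not tested.

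From E16 to E18, 6 pathway genes rose and 15 fell of 41 (42.1% of all tested genes were called). The receptor gene Bmpr2 rose by 2.35 (SE 0.25, adjusted p = 2.14e-07), while the ligand Bmp5 was at least 6.71-fold lower (adjusted p = 0.00154) and the antagonist Grem1 at least 3.98-fold lower (adjusted p = 0.0247). In the libraries labelled deleted at E10, 9 rose and 10 fell (51.5% of all tested genes). Msx2 was at least 45.0-fold higher than in E16 small intestine (adjusted p = 4.22e-05) and Smad9, which encodes a BMP-branch Smad, higher by 3.67 (SE 0.77, adjusted p = 0.000352), while the ligand Bmp6 was at least 2.86-fold lower (adjusted p = 0.000299). In those labelled deleted at E13, 9 rose and 12 fell (39.5% of all tested genes), with Smad9 higher by 5.62 (SE 0.84, adjusted p = 1.42e-05) and the ligand Bmp3 at least 29.6-fold lower (adjusted p = 0.000419). In those labelled deleted at E15, 4 rose and 2 fell (17.5%), among them Rgmb, a BMP co-receptor, by 1.81 (SE 0.16, adjusted p = 9.50e-08). In the adult, 1 rose and 5 fell of 22 tested (20.4% of all tested genes). The antagonist gene Chrd rose by 4.41 (SE 0.48, adjusted p = 0.00546), and Bmp3 fell by 5.17 (SE 0.46, adjusted p = 0.00382). Against E16 small intestine, at 1309 to 1397 CPM, mesenchyme markers summed to 32.3 to 32.9 at E18, 54.8 to 103 in the E10 group and 67.2 to 69.7 in the E13 group. Endothelial markers went from 39.3 to 43.35 CPM at E16 to 3.29 to 4.56 at E18 and mesothelial ones from 59.4 to 66.4 to 0.41 to 0.459. The part of these markers, and of those given above for the E15 and adult groups, in the pathway counts was not tested.

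Over the 13 embryonic group means of log2 CPM, the pattern of each gene was set beside those of all genes with an average log2 CPM of at least 2, as a description, since the groups share one scaling. Id1 and Id3 were among each other's 3 most alike genes (Pearson r = 0.887, and 0.741 over the 12 groups without the deletion at E10). The r of Id2 was 0.294 to Id1 and 0.24 to Id3 with that group and negative without it, at -0.495 and -0.396. Bmp4 and Smad7 went in opposite directions (r = -0.887). The gene most like Bmp7 was Haus5 (r = 0.983), most like Nog Pycr1 (0.944), most like Smad6 Tmem106c (0.885), most like Smad7 Ccdc85c (0.956), most like Id2 Rwdd1 (0.945), most like Id4 C630043F03Rik (0.899) and most like Bmp2 Cxcl16 (0.868).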

How the data were processed

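RNA-seq read counts per gene were used for 31 mouse libraries. The counts were made by the authors, per the deposited table, and the submitters' processing notes name Bowtie2, STAR 2.5.3a, MACS2, HTSeq and mm9 without saying which step used which. Per the labels' protocols, embryonic libraries were made with a low-input kit and adult ones with TruSeq, as 75 bp single-end reads, so embryo and adult were not compared by test. The adult columns hold 2 blank cells each, which were closed up. 2 further columns of per-sample values and 43 samples that are not RNA were not used here.

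Counts were fitted with edgeR 4.0.16 in R 4.3.3 (quasi-likelihood test, TMM scaling, filterByExpr with a minimum count of 10), with the 27 embryonic libraries in 1 fit (17239 genes tested) and the 4 adult ones in another (12444), and p-values were adjusted by Benjamini-Hochberg over all genes tested. The scripts were tested on simulated data. The 10 genes, the pathway list and the marker lists were chosen with earlier results of these data known. The 10 genes are named wherever called. Pathway genes were selected as up to 3 per direction and comparison, called with groups that do not overlap and with the largest fold change. Only some of those selected are named, and not always the ones with the largest fold change. Alternatives were RLE scaling, DESeq2 1.42.0, no low-count filter, no minimum fold, thinning, a replicate block, fewer groups in the fit and leaving out each library. 2 fits without libraries that stand apart were added after the data were seen. 2 genes of the marker lists are not reported here.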

Additional observations from a re-analysis of the deposited data

Results flagged for a closer look

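The E14 to E16 change differed between organs by a test of the difference itself (edgeR). Between forestomach and hindstomach this held for Id4, by 4.92. Between forestomach and small intestine the difference was 2.76 for Bmp2, -1.65 for Bmp7, -1.15 for Smad6, 2.01 for Id2, -1.32 for Id3 and 1.24 for Id4. Between hindstomach and small intestine it was 2.91 for Bmp4, -1.78 for Bmp7, 1.73 for Id2 and -3.68 for Id4. Of the 8 fits that each left out 1 library, the call was kept in 1 for Bmp2, 2 for Smad6, 0 for Id3 and 1 for Id4 in forestomach against small intestine and in 1 for Bmp4 in hindstomach against small intestine, and in all 8 for the others.

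The difference from E16 small intestine was not the same in the libraries labelled deleted at E10 as in those labelled deleted at E13, again by a test of the difference. It was 3.47 for Bmp4, 2.49 for Bmp7, 1.10 for Smad6, 3.84 for Id1, 4.03 for Id2, 3.92 for Id3 and 4.08 for Id4, all higher in the E10 group. Smad6 came under the fold threshold without replicate 3 of the E10 group (0.967) and with the replicate block (0.965). The fitted value for Nog was 5.97, which depends on the prior count since the other group had 0 counts, and is no bound. Its call was lost without replicate 1 or 3 of the E10 group, with the replicate block and after thinning.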

How the results depend on the processing

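Alternatives were run for 122 pairs of gene and comparison, the 109 calls among them, and none of those fitted log2 fold changes changed direction. For Bmp2, the ratio of the E16 small intestine mean to that of the libraries labelled deleted at E10 was taken outside the fits. It was 1.08 with TMM and 0.975 with RLE. The Id2 level after the deletion at E10 was 1.77 times the next group with TMM and 0.894 times by total counts. Of these calls, out of 238 tests, 66 were kept under every alternative and 71 in every fit that left out 1 library. With each library left out in turn, the count of members called ranged from 2 to 7 for E12 forestomach against small intestine, 3 to 8 for E12 hindstomach against small intestine, 0 to 1 for E16 forestomach against hindstomach and 3 to 5 for E16 forestomach against small intestine. From E12 to E14 it ranged from 1 to 2 in forestomach, 3 to 5 in hindstomach and 4 to 8 in small intestine. From E14 to E16 it ranged from 2 to 3 in hindstomach and 3 to 5 in small intestine. It ranged from 1 to 2 for the libraries labelled deleted at E15, 2 to 4 for the interaction of forestomach and small intestine and 1 to 4 for the adult. For E16 forestomach against hindstomach the count of 1 became 3 with RLE scaling, DESeq2, thinning or only the groups compared, and 2 with no minimum fold. With no minimum fold E16 forestomach against small intestine had 8. With only the groups compared, E12 hindstomach against small intestine had 0, forestomach from E12 to E14 had 4, small intestine from E12 to E14 had 3 and the forestomach and hindstomach interaction had 2.

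Replicate numbers were not taken to pair the libraries. Over 66 pairs of embryonic groups the correlation of replicate differences ran from -0.071 to 0.266 with a median of 0.002 and was over 0.1 in 5, and it was -0.152 in the adult. With the replicate block the E16 forestomach against hindstomach count was 2 and that of the E10 against the E13 label was 6, without Nog and Smad6. RLE scaling moved the median of all genes by 0.257 for forestomach from E14 to E16 and by 0.188 for E16 forestomach against small intestine. The share of called genes that were higher went from 55.2% to 67.6% in the former, from 31.2% to 43.5% for E16 forestomach against hindstomach and from 36.9% to 50.5% for the interaction of those regions. Scaling by total counts moved 115 of 150 group levels by more than the replicate spread. Depth limits Bmp4 and Nog, which had few counts in many libraries.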
